A study of Rattus norvegicus with 51 samples.

Results

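The natriuretic peptide system was followed here through 7 genes in cultured rat heart tissue. They are the peptide genes Nppa, Nppb and Nppc, the receptor genes Npr1, Npr2 and Npr3, and Corin, which encodes the protease that activates the Nppa product. Each gene was taken as the row of the deposited annotated signal table whose gene symbol equalled its name, and where a symbol has several probe sets the one with the highest mean is used. All 7 were found, each with 1 probe set, among 18602 genes with a single symbol. Values are log2 signals after robust multi-array averaging (RMA), so a difference of 1 is a doubling of signal, and levels of different genes are not compared because each probe set has its own brightness.

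The tissues were made from ventricular myocytes of neonatal Sprague-Dawley rats, plated on silicone membranes that carried fibronectin either uniformly (isotropic) or in micropatterned lines that align the cells (anisotropic). After 1 h of attachment, which is the 0 h point, tissues were kept unstretched or stretched cyclically. There were 16 groups on 51 arrays. At 6, 24 and 96 h these were anisotropic tissue stretched transversely to the cells, anisotropic tissue stretched longitudinally, anisotropic unstretched tissue, isotropic stretched tissue and isotropic unstretched tissue, with 3 arrays each. The 0 h group was isotropic unstretched tissue with 6 arrays, 1 from each of 6 primary harvests, and the 3 arrays of every later group came from 3 different harvests. No group carried a genetic change. All later groups were grown with 10% serum for the first 48 h and 2% serum after that, so 96 h tissue differed from 24 h tissue in serum as well as in age, and these cannot be told apart. The amplitude and rate of stretch and the animals' age in days are not given in the sources used here.

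Natriuretic peptides are hormones of the heart and the vessel wall that lower blood volume and pressure. Nppa encodes atrial natriuretic peptide and Nppb encodes brain natriuretic peptide; ventricular muscle makes both in fetal life and again under load, and both are standard markers of cardiac hypertrophy. Nppc encodes C-type natriuretic peptide, made largely by endothelium and other non-myocytes. The receptors encoded by Npr1 (for the atrial and brain peptides) and Npr2 (for the C-type peptide) are guanylyl cyclases that make cyclic GMP inside the cell. Npr3 encodes the clearance receptor, which has no cyclase domain and takes the peptides up for degradation.

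Nppa and Nppb are neighbours on rat chromosome 5. In the RefSeq table of assembly GRCr8, Nppb lies at chr5:163699955-163701314 and Nppa at chr5:163712184-163713493, both on the plus strand, with 10869 bases and 0 other listed genes between them. The other members lie apart: Npr2 at chr5:62678197-62697360, Npr1 at chr2:178231766-178247591, Npr3 at chr2:62592557-62660497, Nppc at chr9:94767986-94772186 and Corin at chr14:36034613-36264671. The promoters of Nppa and Nppb are shown because the 2 genes are neighbours and both were higher at 96 h than at 0 h. The runs are from RefSeq (GRCr8), plus strand, 5′ to 3′, and end at the base before each gene record. Capitals mark matches to sites of cardiac transcription factors: GATAA for GATA factors, AAGTG for Nkx2-5 and CATTCC for TEAD factors, which reads GGAATG on the strand printed.
Nppa, chr5:163711934-163712183: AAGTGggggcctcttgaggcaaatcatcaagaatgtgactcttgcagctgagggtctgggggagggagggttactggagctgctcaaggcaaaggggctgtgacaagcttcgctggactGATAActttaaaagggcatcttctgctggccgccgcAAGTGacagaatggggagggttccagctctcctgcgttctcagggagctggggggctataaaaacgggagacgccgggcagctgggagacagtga
Nppb, chr5:163699758-163699954: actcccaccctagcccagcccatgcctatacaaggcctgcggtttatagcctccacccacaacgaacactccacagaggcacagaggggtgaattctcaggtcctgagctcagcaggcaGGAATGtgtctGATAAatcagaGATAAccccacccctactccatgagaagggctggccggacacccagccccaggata
The search covered both strands of the 250 bases before the start and also held the AP-1 site TGANTCA and the CArG box of SRF, which had no match in either promoter. The CArG box was searched only in its exact form, so a near match to it would not be marked. No 2 matches shown overlap. In Nppa, AAGTG began at bases -250 and -95 and GATAA at base -131, counted back from the start. In Nppb, CATTCC matched from base -131 and GATAA from bases -120, -109 and -57. For Nppb the start used lies inside the gene record, so positions are not counted from the end of the printed run. The last GATAA lies across the start of the gene record and so is not wholly in the printed run. Such letters are common: of 33469 promoter windows of the same length, GATAA was found in 23.5%, AAGTG in 40.6%, CATTCC in 12.1%, TGANTCA in 6.34% and the CArG box in 1.5%. The windows of Nppc, Npr1, Npr3 and Corin held none of the 5 motifs, which says only that these letters are absent there. Npr2 has no entry in the promoter table.

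Array medians lay between 5.31 and 5.43, and Pearson's r between arrays was 0.9548 to 0.9977. The 10 cardiomyocyte markers measured were bright (93.7th to 100th percentile of gene means). Of the 10 fibroblast markers, all had mean signals above the median gene, from the 50.5th to the 99.5th percentile, while the 9 macrophage markers lay between the 26.2nd and the 69.3rd. In bulk RNA of this kind, fewer cells of a type and less RNA per cell cannot be told apart. The number of arrays, 3 in most groups, limits the precision. A pair of arrays of harvest 1 stand apart from their labels. All genes were used to place each array on a line on which 24 h anisotropic unstretched tissue is at 0 and 96 h anisotropic unstretched tissue at 1. Isotropic stretched tissue of 24 h, replicate 1, was placed at 0.902, while its other replicates were at 0.0672 and 0.0565. Isotropic unstretched tissue of 96 h, replicate 1, was placed at 0.216, while its other replicates were at 1.03 and 1.01. The authors' deposited table holds 15 columns of log2 fold changes: 13 matched the group means as labelled to within 0.001, and all 15 matched once these 2 arrays were exchanged. Every array was kept under its label, and results that rest on these arrays are also given without them.

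Over all 16 groups, 6 of the 7 genes varied (limma's moderated F test with a term for harvest, adjusted p under 0.05), where 63.8% of all genes did. Of the variance over arrays, group accounted after harvest for 92.5% in Corin, 85.9% in Npr1, 81.7% in Npr3, 77.7% in Nppa and 77.3% in Nppb. The shares were lower in Nppc (47.7%, adjusted p = 0.051) and Npr2 (43.7%). The harvest terms of the fit spanned 0.84 log2 units for Nppb and 0.78 for Nppa, against 0.10 for Nppc and 0.30 to 0.50 for the receptors and Corin. The highest Nppb term, 0.60, was that of harvest 6. For Nppb the harvest 6 array at 0 h, 11.13, lay inside the range of the other 0 h arrays. Its 24 h transverse array read 12.72, where the others of that group read 10.85 and 10.91, so this term may partly reflect that array.

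**Figure D1:**
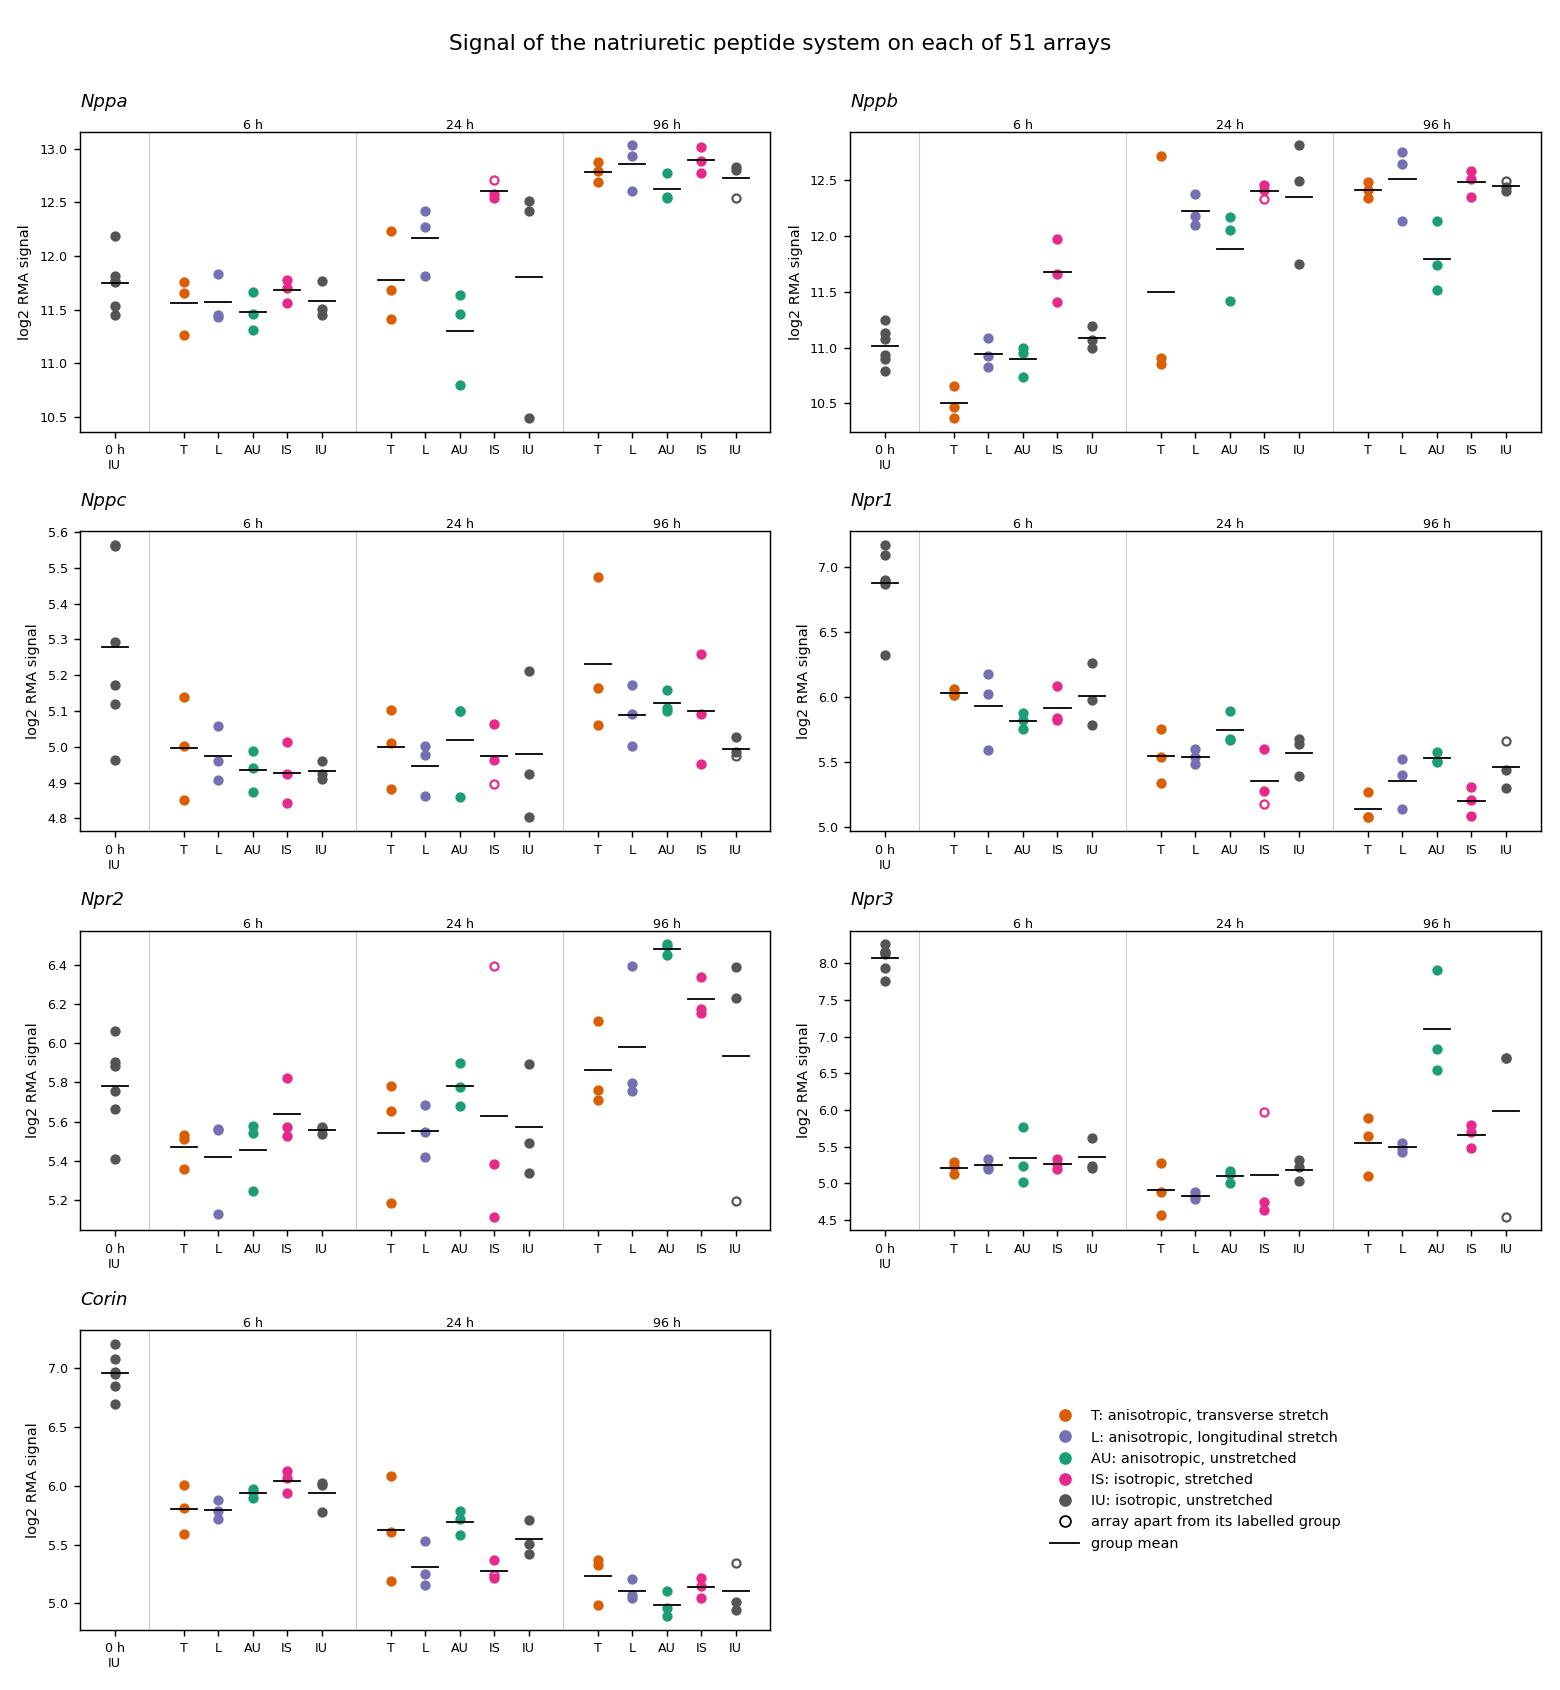
Log2 RMA signal of the 7 genes on each of 51 arrays, by time and group; T is transverse, L longitudinal, AU anisotropic unstretched, IS isotropic stretched and IU isotropic unstretched, lines are group means, and open circles are the 2 arrays that stand apart. All 96 h arrays lie above all 0 h arrays for Nppa and Nppb, while Npr1, Npr3 and Corin sit highest at 0 h, with Npr3 at 6.55 to 7.92 again in 96 h anisotropic unstretched tissue.

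In isotropic culture without stretch, Nppb was higher than at 0 h at 24 and 96 h and Nppa at 96 h, with a 24 h value of Nppa that depended on 1 array, while Npr1, Npr3, Corin and, by small amounts, Nppc fell from 6 h on. With all arrays kept under their labels, Npr2 did not pass the test at any time. Against 0 h, isotropic unstretched tissue had 15 of 21 member tests past the threshold (limma, adjusted p under 0.05), 3 higher and 12 lower. Over all genes the share called was 31.7% at 6 h, 36.8% at 24 h and 37.9% at 96 h. In the lower direction it was 12.5%, 16.1% and 16.1%, and in the higher direction 19.1%, 20.8% and 21.8%, at 6, 24 and 96 h. Of the 15 calls, 12 held when any single array of the groups compared was left out, and the other 3 were those of Nppc.

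Stretch moved few of these genes past the threshold. Of 63 member tests of stretched against unstretched tissue, 3 were called: Nppa was higher in isotropic tissue at 24 h, and Npr3 was lower at 96 h under longitudinal and under transverse stretch. At unadjusted p under 0.05 there were 11. The share called among all genes under isotropic stretch was 0.00538% at 6 h, 3.93% at 24 h and 2.94% at 96 h. Under longitudinal stretch it was 0.0968%, 2.23% and 9.7%, and under transverse stretch 0%, 1.46% and 15%, at 6, 24 and 96 h. The members' 3 of 63 tests, or 4.76%, thus lay near the 3.93% of all gene tests of this kind.

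**Figure D2:**
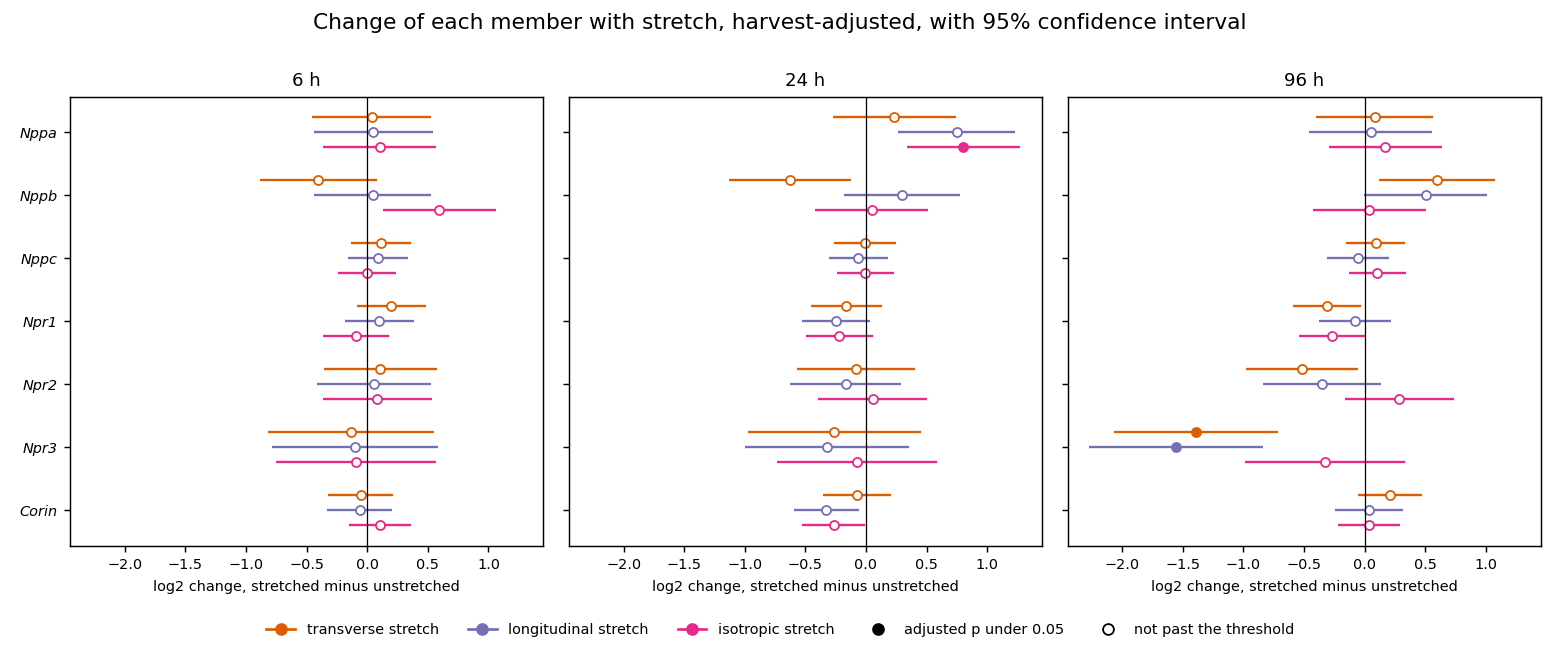
Harvest-adjusted log2 change of stretched minus unstretched tissue for each gene at 6, 24 and 96 h, under transverse, longitudinal and isotropic stretch; bars are 95% confidence intervals and filled points have an adjusted p under 0.05. The 3 filled points are Nppa at 24 h in isotropic tissue (0.80) and Npr3 at 96 h under longitudinal (-1.56) and transverse (-1.39) stretch.

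Nppa was among the brightest genes on the arrays (mean log2 signal 12.05, the 99.7th percentile of genes). At 0 h it ran from 11.45 to 12.19 with a median of 11.76. At 6 h all 15 arrays lay between 11.26 and 11.83, inside or under the 0 h range. By 96 h all 15 arrays lay between 12.54 and 13.03, above every 0 h array. Each was also above the 0 h array of its own harvest, by 0.84 to 1.36. In isotropic unstretched tissue Nppa averaged 12.72 ± 0.16 at 96 h (SD, n = 3), against 11.75 ± 0.26 at 0 h (SD, n = 6), a log2 change of 1.13 ± 0.21 (SE, adjusted p = 3.3e-05). The 6 h and 24 h changes, -0.01 and 0.13, did not pass (adjusted p = 0.98 and 0.69). The 24 h change depended on 1 array: without 24 h isotropic unstretched replicate 1 it was 0.71 ± 0.14 (SE, adjusted p = 0.00013).

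The intermediate time was the one at which the Nppa groups spread out. At 24 h the isotropic stretched arrays read 12.71, 12.58 and 12.54 in harvests 1, 2 and 4, against 10.49, 12.42 and 12.51 in isotropic unstretched tissue of the same harvests. The stretched arrays were tight and the groups did not overlap, but 1 unstretched array lay far under the others of its own group. The fitted log2 change was 0.80 ± 0.23 (SE, adjusted p = 0.04, 95% CI 0.33 to 1.27), or 1.75-fold. Within a harvest the difference ran from 0.03 to 2.22. Without the low unstretched array (replicate 1) it was 0.23 (adjusted p = 0.65), and without stretched replicate 1, an array that stands apart, 0.60 (adjusted p = 0.19); with both arrays that stand apart left out it was 0.60 (adjusted p = 0.18). It was also lost without the harvest block (adjusted p = 0.17), with the harvests as random effects (adjusted p = 0.056) and with the own 0 h array subtracted (adjusted p = 0.092). Of 18 alternative fits, 9 lost the call and 9 kept it, among the latter the fit with the 2 arrays that stand apart exchanged.

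Markers of other cells moved in the same 24 h isotropic comparison, where 3.93% of all genes were called. Of the fibroblast markers 4 of 10 were lower, of the macrophage markers 3 of 9, of the endothelial and endocardial markers 3 of 7, of the erythroid markers 1 of 3 and of the cardiomyocyte markers 3 of 10, and 1 of 5 smooth muscle and pericyte markers was higher. The fibroblast mean ran from 7.915 to 9.62 in stretched tissue, the highest being replicate 1, and from 8.97 to 9.39 in unstretched tissue. The cardiomyocyte mean ran from 11.23 to 11.69 in stretched and from 11.60 to 11.66 in unstretched tissue. The macrophage mean ran from 5.51 to 6.16 in stretched and from 5.98 to 6.33 in unstretched tissue. The endothelial mean ran from 5.31 to 5.41 in stretched and from 5.655 to 5.94 in unstretched tissue, and the erythroid mean from 5.87 to 8.67 in stretched and from 9.585 to 9.73 in unstretched tissue. The part of these markers in the Nppa result was not tested.

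Anisotropic tissue at 24 h gave Nppa readings of 11.41, 11.68 and 12.23 under transverse stretch (harvests 4, 5 and 6), 12.42, 11.81 and 12.27 under longitudinal stretch (harvests 2, 4 and 5) and 10.80, 11.46 and 11.64 unstretched (harvests 1, 2 and 4). Longitudinal arrays lay above all unstretched ones, and transverse arrays overlapped with both. The change under longitudinal stretch was 0.75 ± 0.24 (SE, adjusted p = 0.092), and without longitudinal replicate 2 it was 0.96 (adjusted p = 0.049). Under transverse stretch it was 0.24 ± 0.25 (SE, adjusted p = 0.76, 95% CI -0.27 to 0.74). By 96 h the stretched minus unstretched differences were 0.05 to 0.17 in the 3 layouts, none past the threshold, with 95% intervals reaching at most from -0.46 to 0.64.

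Between 24 and 96 h Nppa rose by 1.41 ± 0.24 in anisotropic unstretched tissue (SE, adjusted p = 0.00012) and by 1.25 ± 0.25 under transverse stretch (SE, adjusted p = 0.00058). Both calls were kept when any single array of the groups compared was left out. In isotropic unstretched tissue the step was 1.00 ± 0.24 (SE, adjusted p = 0.0085), but 0.39 (adjusted p = 0.24) without the low 24 h array, when the 6 to 24 h step was 0.75 ± 0.16 (SE, adjusted p = 0.0015), and 0.94 (adjusted p = 0.056) without 96 h replicate 3. Under longitudinal stretch the step was 0.71 (adjusted p = 0.06) as fitted, and it passed in some alternative fits. Among these it was 0.76 (adjusted p = 0.044) with the harvests as random effects and 0.74 (adjusted p = 0.032) with the 2 arrays that stand apart left out. In isotropic stretched tissue the step from 6 to 24 h was 0.85 ± 0.24 (SE, adjusted p = 0.012), though 0.63 (adjusted p = 0.13) without 24 h replicate 1 and 0.77 (adjusted p = 0.055) without 6 h replicate 2. The shares of all genes called from 24 to 96 h were 4.63% in isotropic unstretched, 14.3% in anisotropic unstretched, 10.7% in longitudinally and 15.7% in transversely stretched tissue. From 6 to 24 h in isotropic stretched tissue the share was 17.1%.

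In order of fitted level, Nppa was highest in 96 h isotropic stretched tissue (13.05) and lowest in 24 h anisotropic unstretched tissue (11.38). Neighbouring groups in that order lay within 1 residual SD (0.30) of each other, except that 24 h isotropic stretched tissue lay 0.56 above the next group, 24 h longitudinal stretch.

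Nppb, the neighbouring peptide gene, had a mean log2 signal of 11.71 (99.5th percentile of genes). At 0 h it ran from 10.79 to 11.25 with a median of 11.01. In isotropic unstretched tissue it read 11.00, 11.19 and 11.07 at 6 h, 11.75, 12.81 and 12.49 at 24 h, and 12.49, 12.40 and 12.44 at 96 h. Arrays of 24 and 96 h thus lay above all 0 h arrays, and those of 6 h did not. The log2 change from 0 h was 0.20 at 6 h (adjusted p = 0.53), 1.45 ± 0.21 at 24 h (SE, adjusted p = 4.7e-07) and 1.56 ± 0.21 at 96 h (SE, adjusted p = 1.3e-07), the last a 2.95-fold rise. Leaving out any single array of the groups compared kept the 24 h change between 1.26 and 1.71 and the 96 h change between 1.47 and 1.65, all past the threshold.

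From 6 to 24 h, Nppb rose in all 5 conditions, in 3 of them with every single array of the groups compared left out in turn. Those were 1.25 ± 0.23 in isotropic unstretched tissue (SE, adjusted p = 3e-04), 1.23 under longitudinal stretch (adjusted p = 0.00031) and 0.97 in anisotropic unstretched tissue (adjusted p = 0.004), where 13.7%, 14.1% and 13.5% of all genes were called. The rises of 0.75 under transverse stretch (adjusted p = 0.031, 15.3% of all genes called) and 0.70 under isotropic stretch (adjusted p = 0.036) rested on single arrays. The transverse one was 0.35 (adjusted p = 0.26) without 24 h replicate 3, 0.65 (adjusted p = 0.14) without 6 h replicate 2 and 0.73 (adjusted p = 0.092) without 6 h replicate 3. The isotropic stretched one was 0.47 (adjusted p = 0.22) without 6 h replicate 2, 0.76 (adjusted p = 0.067) without 6 h replicate 1, 0.67 (adjusted p = 0.12) without 24 h replicate 1 and 0.71 (adjusted p = 0.061) without 24 h replicate 3. With each array minus the 0 h array of its own harvest, the step of anisotropic unstretched tissue was 0.87 (adjusted p = 0.10), that of transverse stretch 0.88 (adjusted p = 0.094) and that of isotropic stretch 0.57 (adjusted p = 0.32). Only transversely stretched tissue had a further Nppb rise past the threshold from 24 to 96 h, 1.16 ± 0.25 (SE, adjusted p = 0.0012), which was 0.94 (adjusted p = 0.054) with the own 0 h array subtracted, and whether it differs from the steps of the other conditions was not tested.

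**Figure D3:**
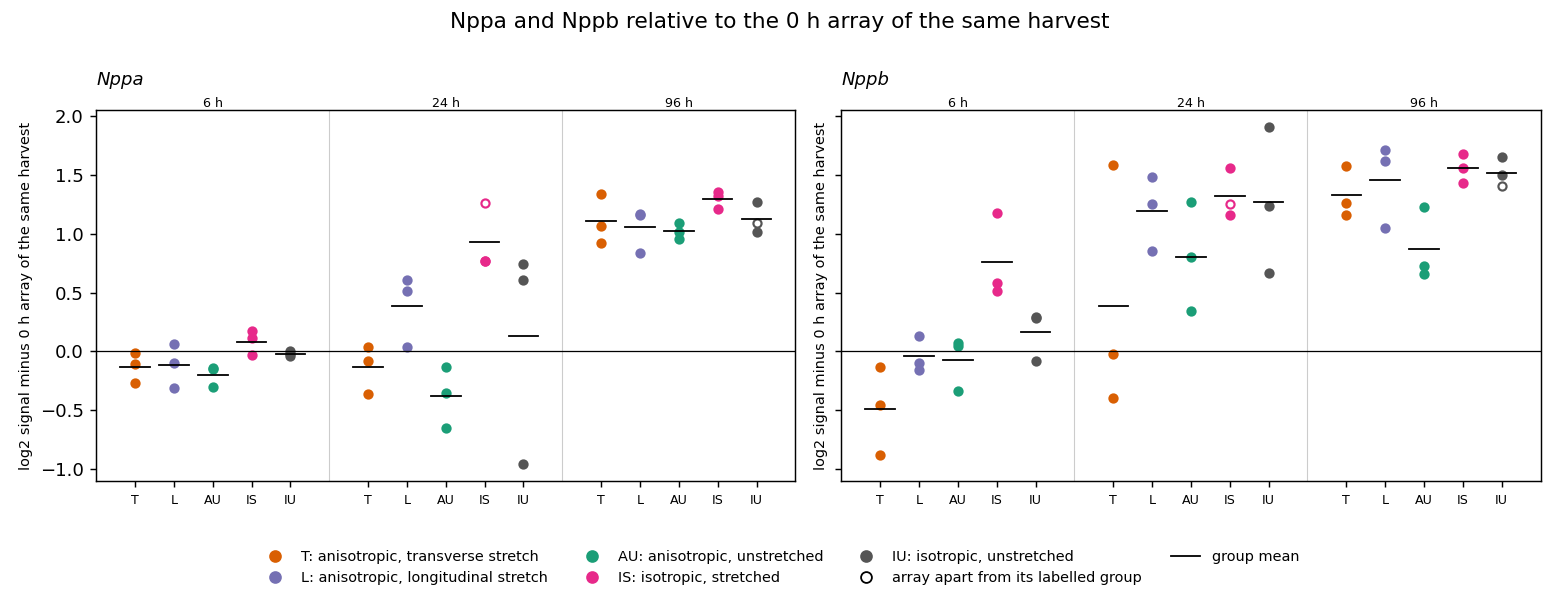
Nppa and Nppb on each later array as log2 signal minus that of the 0 h array of the same harvest; lines are group means and open circles the 2 arrays that stand apart. At 96 h all 15 arrays lie above 0 for both genes (0.84 to 1.36 for Nppa, 0.66 to 1.71 for Nppb), while at 6 h only 4 of 15 do for Nppa and 8 of 15 for Nppb.

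Nppb under stretch is given by time, since the sign of its fitted difference was not the same in all comparisons. As fitted, no test against unstretched tissue passed, and no F test for a difference between times or layouts was called. At 6 h isotropic stretched tissue read 11.66, 11.41 and 11.97, against 11.00, 11.19 and 11.07 in isotropic unstretched tissue of the same harvests. All 3 stretched arrays were above all unstretched ones, by 0.22 to 0.90 within a harvest. The log2 difference was 0.59 ± 0.23 (SE, unadjusted p = 0.014, adjusted p = 1, 95% CI 0.13 to 1.06). Transversely stretched tissue at 6 h read 10.66, 10.37 and 10.47, against 10.74, 10.95 and 11.00 in anisotropic unstretched tissue, a difference of -0.41 ± 0.24 (SE, adjusted p = 1). These 3 arrays were the lowest of the 51 for Nppb. Longitudinally stretched tissue at 6 h read 10.92, 11.09 and 10.83 and differed from unstretched by 0.04.

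At 24 h transversely stretched tissue split by harvest, with Nppb at 10.85 and 10.91 in harvests 4 and 5 and 12.72 in harvest 6. Longitudinally stretched tissue read 12.38, 12.10 and 12.18 in harvests 2, 4 and 5, and anisotropic unstretched tissue 11.42, 12.17 and 12.05 in harvests 1, 2 and 4. In both harvests that held both directions, transverse was below longitudinal stretch, by 1.25 in harvest 4 and 1.27 in harvest 5. The transverse minus longitudinal difference was -0.93 ± 0.24 (SE, unadjusted p = 0.00048, adjusted p = 0.21), and the transverse minus unstretched difference -0.63 ± 0.25 (SE, adjusted p = 0.22). Without the harvest 6 array (transverse replicate 3), they were -1.32 ± 0.19 (SE, adjusted p = 0.0012) and -1.04 ± 0.20 (SE, adjusted p = 0.0024). Harvest 6 held no other array at 24 h.

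At 96 h both stretched anisotropic groups had higher Nppb means than the unstretched one. Transversely stretched tissue read 12.34, 12.48 and 12.41 and longitudinally stretched tissue 12.13, 12.64 and 12.75, against 11.74, 12.13 and 11.52 in anisotropic unstretched tissue. Transverse arrays all lay above the unstretched ones, and the lowest longitudinal array equalled the highest unstretched array to 2 decimals. The differences were 0.60 ± 0.23 for transverse (SE, adjusted p = 0.084, 95% CI 0.12 to 1.08) and 0.50 ± 0.25 for longitudinal stretch (SE, adjusted p = 0.23). The transverse difference passed when the fit was restricted to arrays of 96 and 0 h (0.49, adjusted p = 0.033). Isotropic tissue read 12.51, 12.58 and 12.35 stretched, against 12.49, 12.40 and 12.44 unstretched, a difference of 0.04 with a 95% interval of -0.43 to 0.50.

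The F test of whether the Nppb response to transverse stretch differed between 6, 24 and 96 h gave an adjusted p of 0.062, where 2.83% of all genes were called. It was 0.037 with the 2 arrays that stand apart left out, and between 0.00079 and 0.17 with single arrays left out, past the threshold in 5 of 51 such fits. At 24 h, the F test for a difference between the 3 layouts gave an adjusted p of 0.45; of 51 fits that each left out 1 array, 1 called it (adjusted p = 0.0054). In the order of levels, 96 h isotropic stretched tissue was highest (12.61) and 6 h transversely stretched tissue lowest (10.62), which lay below the 0 h group by 0.40, or 1.35 residual SDs. Another 2 gaps between neighbours exceeded 1 residual SD, from 6 h isotropic stretched down to 24 h transverse tissue and from 24 h longitudinal down to 24 h anisotropic unstretched tissue.

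Nppc signal was low and nearly flat, with a mean of 5.05 (37.2nd percentile) and a range over the 51 arrays of 4.80 to 5.56. The 6 arrays at 0 h ran from 4.96 to 5.56 with a median of 5.23, and later arrays from 4.80 to 5.47. In isotropic unstretched tissue Nppc was lower than at 0 h by 0.35 at 6 h (adjusted p = 0.0099), 0.31 at 24 h (adjusted p = 0.016) and 0.28 at 96 h (adjusted p = 0.032) on the log2 scale. These calls depended on single arrays. The 6 h change was -0.31 (adjusted p = 0.058) without 6 h replicate 1. The 24 h change was -0.24 (adjusted p = 0.068) without 0 h replicate 2, -0.27 (adjusted p = 0.091) without 24 h replicate 1 and -0.21 (adjusted p = 0.19) without 24 h replicate 2. The 96 h change was -0.21 (adjusted p = 0.12) and -0.23 (adjusted p = 0.075) without 0 h replicates 2 and 5, and -0.25 (adjusted p = 0.12) and -0.28 (adjusted p = 0.081) without 96 h replicates 1 and 2. With the own 0 h array subtracted, none of the 3 passed (adjusted p = 0.23, 0.17 and 0.33 at 6, 24 and 96 h). All 9 stretch differences lay between -0.06 and 0.11, none past the threshold, with 95% intervals inside -0.31 to 0.36. No neighbouring groups in the order of Nppc levels differed by 1 residual SD (0.15).

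Corin, whose product cleaves pro-atrial natriuretic peptide to its active form on the myocyte surface, was lower at 96 h than at 0 h, while Nppa was higher. At 0 h it ran from 6.70 to 7.21 with a median of 6.96. At 6 h the 15 arrays ran from 5.59 to 6.12, at 24 h from 5.16 to 6.08 and at 96 h from 4.89 to 5.37. No later array reached the 0 h range, and the 96 h arrays lay below all 6 h arrays. In isotropic unstretched tissue Corin averaged 5.10 ± 0.21 at 96 h (SD, n = 3), against 6.96 ± 0.18 at 0 h (SD, n = 6). The log2 change from 0 h was -1.003 ± 0.11 at 6 h (SE, adjusted p = 1.5e-08), -1.43 ± 0.11 at 24 h (SE, adjusted p = 2.2e-12) and -1.84 ± 0.11 at 96 h (SE, adjusted p = 3.9e-15). Each call was kept when any single array of the groups compared was left out.

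Part of the Corin fall came after 6 h. It fell from 6 to 24 h in isotropic stretched tissue by 0.80 (adjusted p = 4.5e-05) and from 24 to 96 h in anisotropic unstretched tissue by 0.67 (adjusted p = 0.00057), both kept in each leave-one-out fit. Its other 3 called steps did not all hold. The longitudinal step from 6 to 24 h, -0.52 (adjusted p = 0.0057), was -0.42 (adjusted p = 0.052) without 24 h replicate 1. The isotropic unstretched step from 6 to 24 h, -0.43 (adjusted p = 0.025), was -0.45 (adjusted p = 0.053) and -0.38 (adjusted p = 0.12) without 6 h replicates 1 and 2, and -0.42 (adjusted p = 0.074) and -0.39 (adjusted p = 0.09) without 24 h replicates 2 and 3. The transverse step from 24 to 96 h, -0.39 (adjusted p = 0.049), was -0.35 (adjusted p = 0.17) and -0.22 (adjusted p = 0.29) without 24 h replicates 2 and 3, and -0.42 (adjusted p = 0.08) and -0.27 (adjusted p = 0.26) without 96 h replicates 1 and 3. The isotropic unstretched step from 24 to 96 h was not called as fitted. It was -0.48 (adjusted p = 0.021) with the 2 arrays that stand apart left out and -0.44 (adjusted p = 0.0094) with them exchanged.

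No stretch difference of Corin passed the threshold. The largest were at 24 h, where isotropic stretched arrays read 5.25, 5.22 and 5.37, against 5.71, 5.51 and 5.42 unstretched, a difference of -0.27 ± 0.13 (SE, adjusted p = 0.29). Longitudinally stretched arrays read 5.16, 5.53 and 5.25, against 5.72, 5.58 and 5.78 in anisotropic unstretched tissue, a difference of -0.33 ± 0.13 (SE, adjusted p = 0.23). Stretched and unstretched arrays did not overlap in either pair. The transverse minus longitudinal difference at 24 h passed without transverse replicate 1 (0.53, adjusted p = 0.032).

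Npr1, the cyclase receptor of the atrial and brain peptides, followed a course like that of Corin. It ran from 6.33 to 7.17 at 0 h with a median of 6.90, the lowest being harvest 6. The later arrays ran from 5.59 to 6.26 at 6 h, 5.17 to 5.89 at 24 h and 5.07 to 5.66 at 96 h, so none reached the 0 h range. In isotropic unstretched tissue the log2 change from 0 h was -0.93 ± 0.12 at 6 h (SE, adjusted p = 1.7e-07), -1.29 ± 0.12 at 24 h (SE, adjusted p = 8.3e-11) and -1.47 ± 0.12 at 96 h (SE, adjusted p = 4.3e-12), a signal of 0.361 times that at 0 h by then. The 0 h group stood 0.91 above the next group, or 5.32 residual SDs, for Npr1, and 0.90, or 5.57 residual SDs, for Corin. Below that, neighbours in the order of Npr1 levels were within 1 residual SD (0.17), except 24 h isotropic stretched over 96 h transverse tissue (1.23 SDs).

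At 96 h transversely stretched tissue had Npr1 at 5.07, 5.27 and 5.08, against 5.51, 5.50 and 5.58 in anisotropic unstretched tissue. The groups did not overlap, and the difference was -0.31 ± 0.14 (SE, adjusted p = 0.13, 95% CI -0.59 to -0.03). Longitudinal tissue read 5.14, 5.52 and 5.40 and overlapped with unstretched tissue. Isotropic stretched tissue read 5.21, 5.08 and 5.31, against 5.66, 5.435 and 5.30 unstretched (-0.27, adjusted p = 0.37). Its called steps in time were 6 to 24 h in isotropic stretched tissue, at -0.49 (adjusted p = 0.012), and 24 to 96 h under transverse stretch, at -0.44 (adjusted p = 0.034). The first was -0.45 (adjusted p = 0.054) without 6 h replicate 3 and -0.40 (adjusted p = 0.11) without 24 h replicate 1. The other was -0.42 (adjusted p = 0.11) and -0.37 (adjusted p = 0.12) without 24 h replicates 2 and 3, and -0.42 (adjusted p = 0.11) and -0.44 (adjusted p = 0.076) without 96 h replicates 1 and 3.

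Markers of endothelium and endocardium were lower than at 0 h, as Npr1 and Corin were. Markers of other cell types moved too. The mean log2 signal of the 7 listed markers measured ran from 5.33 to 5.62 in 96 h isotropic unstretched tissue, against 8.145 to 8.72 at 0 h. All 7 were lower than at 0 h at each later time, with median changes of -1.29, -2.96 and -3.26 at 6, 24 and 96 h, where the median of all genes was -0.01, 0.02 and 0.04. In isotropic unstretched tissue the fibroblast mean ran from 8.73 to 8.79 at 6 h and from 8.23 to 10.17 at 96 h. At 0 h it ran from 9.12 to 9.77. The macrophage mean ran from 5.69 to 5.90 at 6 h and from 5.76 to 6.51 at 96 h, against 5.69 to 6.44 at 0 h. The smooth muscle and pericyte mean ran from 7.57 to 7.765 at 6 h, against 7.92 to 8.10 at 0 h. The part of any of these markers in the Npr1 and Corin results, or in the fall of Npr3 given below, was not tested. The mean of the 10 cardiomyocyte markers ran from 11.41 to 11.74 at 96 h in that tissue, against 12.01 to 12.15 at 0 h, with 7 lower and 0 higher.

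Npr2, the cyclase receptor of the C-type peptide, changed less with time. At 0 h it ran from 5.41 to 6.06 with a median of 5.82, and in isotropic unstretched tissue its changes from 0 h were -0.35, -0.23 and 0.02 at 6, 24 and 96 h, none past the threshold (adjusted p = 0.2, 0.42 and 0.94). All 15 arrays of 6 h lay below the 0 h array of their own harvest, by 0.19 to 0.54. The 6 h change passed with the 2 arrays that stand apart left out (-0.33, adjusted p = 0.035) or exchanged (-0.33, adjusted p = 0.036) and when only arrays of 6 and 0 h were fitted (-0.40, adjusted p = 0.00018). Its highest group was 96 h anisotropic unstretched tissue, at 6.45, 6.499 and 6.51. At that time transversely stretched tissue read 5.76, 6.11 and 5.71, below all 3 unstretched arrays, and longitudinally stretched tissue read 6.40, 5.76 and 5.80, below them too. The differences were -0.52 ± 0.23 for transverse (SE, adjusted p = 0.13) and -0.35 for longitudinal stretch (adjusted p = 0.44).

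The 2 arrays that stand apart hold extreme Npr2 values within their groups. In 24 h isotropic stretched tissue replicate 1 read 6.40, against 5.11 and 5.38 for the other replicates, and in 96 h isotropic unstretched tissue replicate 1 read 5.19, against 6.39 and 6.23. With both left out, the transverse minus unstretched difference at 96 h was -0.55 ± 0.14 (SE, adjusted p = 0.0045), where 19.8% of all genes were called. Npr2 then also rose from 24 to 96 h by 0.70 in isotropic unstretched (adjusted p = 0.002), 0.84 in isotropic stretched (adjusted p = 0.00027) and 0.63 in anisotropic unstretched tissue (adjusted p = 0.0012), and it was higher at 96 h than at 0 h in isotropic unstretched tissue by 0.45 (adjusted p = 0.012). The share of all genes called from 24 to 96 h in isotropic stretched tissue, with all arrays, was 5.6%. Under the labels as given, neighbouring groups in the Npr2 order were all within 1 residual SD (0.29).

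Npr3, the clearance receptor, had the widest range of the 7 genes, 4.54 to 8.26. The 6 arrays at 0 h ran from 7.76 to 8.26 with a median of 8.14. At 6 h all 15 arrays lay between 5.01 and 5.77, with no overlap. Isotropic unstretched tissue read 5.24, 5.61 and 5.21 at 6 h, 5.31, 5.21 and 5.03 at 24 h and 4.54, 6.71 and 6.70 at 96 h. The log2 change from 0 h was -2.76 ± 0.29 at 6 h (SE, adjusted p = 3e-09), -2.77 ± 0.29 at 24 h (SE, adjusted p = 1.3e-09) and -2.13 ± 0.29 at 96 h (SE, adjusted p = 2.6e-07). A change of -2.76 is a signal of 0.147 times that at 0 h, and leaving out any single array of the groups compared kept all 3 calls. Without replicate 1 of the 96 h group, which stands apart, the 96 h change was smaller, at -1.43.

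At 96 h Npr3 was high again in anisotropic unstretched tissue and lower under both directions of stretch. Transversely stretched tissue read 5.64, 5.89 and 5.10 in harvests 1, 2 and 4 and longitudinally stretched tissue 5.43, 5.48 and 5.55 in harvests 1, 5 and 6, against 6.55, 6.83 and 7.92 in anisotropic unstretched tissue of harvests 1, 2 and 3. Every stretched array was below every unstretched one. Means were 5.54 ± 0.40 for transverse, 5.49 ± 0.06 for longitudinal and 7.10 ± 0.72 for unstretched tissue (SD, n = 3 each). The fitted change was -1.39 ± 0.33 under transverse stretch (SE, adjusted p = 0.0033, 95% CI -2.07 to -0.71) and -1.56 ± 0.35 under longitudinal stretch (SE, adjusted p = 0.0034, 95% CI -2.27 to -0.84), signals of 0.382 and 0.34 times the unstretched one. At 96 h 8.65% of all genes were called lower under transverse and 5.39% under longitudinal stretch, and 6.39% and 4.31% were called higher. Both calls held when any single array of the groups compared was left out (-1.59 to -1.06 and -1.76 to -1.21).

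Within a harvest the differences were -0.91 and -0.94 for transverse stretch (in harvests 1 and 2) and -1.12 for longitudinal stretch (harvest 1), each smaller than the fitted change. The highest unstretched array, 7.92, was from harvest 3, which held neither stretched group at 96 h. When only arrays of 96 and 0 h were fitted, the changes were -1.22 (adjusted p = 0.061) and -1.37 (adjusted p = 0.096) under transverse and longitudinal stretch.

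The return itself was called in anisotropic unstretched tissue, where Npr3 rose by 1.83 ± 0.33 from 24 to 96 h (SE, adjusted p = 0.00029), again with any single array of the groups compared left out. The 24 h arrays of that condition read 5.01, 5.17 and 5.12. Isotropic unstretched tissue had 2 arrays as high as anisotropic tissue at 96 h and 1 far lower, the array that stands apart. Its 24 to 96 h step was 0.63 (adjusted p = 0.32). It was 1.36 (adjusted p = 0.00085) without 96 h isotropic unstretched replicate 1, 1.34 (adjusted p = 3.6e-05) with both arrays that stand apart left out and 1.16 (adjusted p = 3.5e-05) with them exchanged. In stretched tissue the 24 to 96 h step of Npr3 was not called as fitted. With both arrays left out it was 0.87 in isotropic (adjusted p = 0.0043), 0.60 in longitudinally (adjusted p = 0.038) and 0.71 in transversely stretched tissue (adjusted p = 0.012). Isotropic stretched tissue at 96 h read 5.79, 5.48 and 5.70, against 4.54, 6.71 and 6.70 unstretched, a difference of -0.33 ± 0.32 (SE, adjusted p = 0.74). With the 2 arrays left out it was -0.98 ± 0.21 (SE, adjusted p = 0.0031, 5.98% of all genes called), and with them exchanged -0.80 ± 0.19 (SE, adjusted p = 0.0058).

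Some fibroblast and most macrophage markers were lower in the same stretched tissues at 96 h. The mean log2 signal of the 10 fibroblast markers ran from 8.35 to 8.83 under transverse stretch and from 8.77 to 8.83 under longitudinal stretch, against 10.02 to 10.44 in anisotropic unstretched tissue. Of the 10, 5 were called lower under transverse and 5 under longitudinal stretch and 0 higher, with medians of -1.45 and -1.36. Among them the matrix proteoglycan genes Dcn and Lum changed by -3.03 and -3.25 under transverse stretch and by -2.66 and -2.89 under longitudinal stretch. The 9 macrophage markers averaged 5.04 to 5.63 and 4.87 to 5.42, against 6.59 to 6.79, with 7 of 9 lower under each direction. The 7 endothelial and endocardial markers averaged 5.09 to 5.21 and 5.07 to 5.26, against 5.30 to 5.62. Some cardiomyocyte and some smooth muscle and pericyte markers were called too, in both directions under transverse and only lower under longitudinal stretch. The cardiomyocyte mean ran from 11.6 to 11.77 under transverse and from 11.71 to 11.72 under longitudinal stretch, against 11.34 to 11.92 unstretched. The smooth muscle and pericyte mean ran from 8.26 to 8.94 and from 8.697 to 8.77, against 8.447 to 9.004. The median of all genes was 0.02 under transverse and 0.01 under longitudinal stretch. The part of these markers in the Npr3 result was not tested. From 24 to 96 h in anisotropic unstretched tissue, where Npr3 rose, 5 of 10 fibroblast markers and 3 of 9 macrophage markers were called higher and 0 lower. In 96 h isotropic unstretched tissue the fibroblast mean was 8.23 on the array with low Npr3 and 10.17 on both others.

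**Figure D4:**
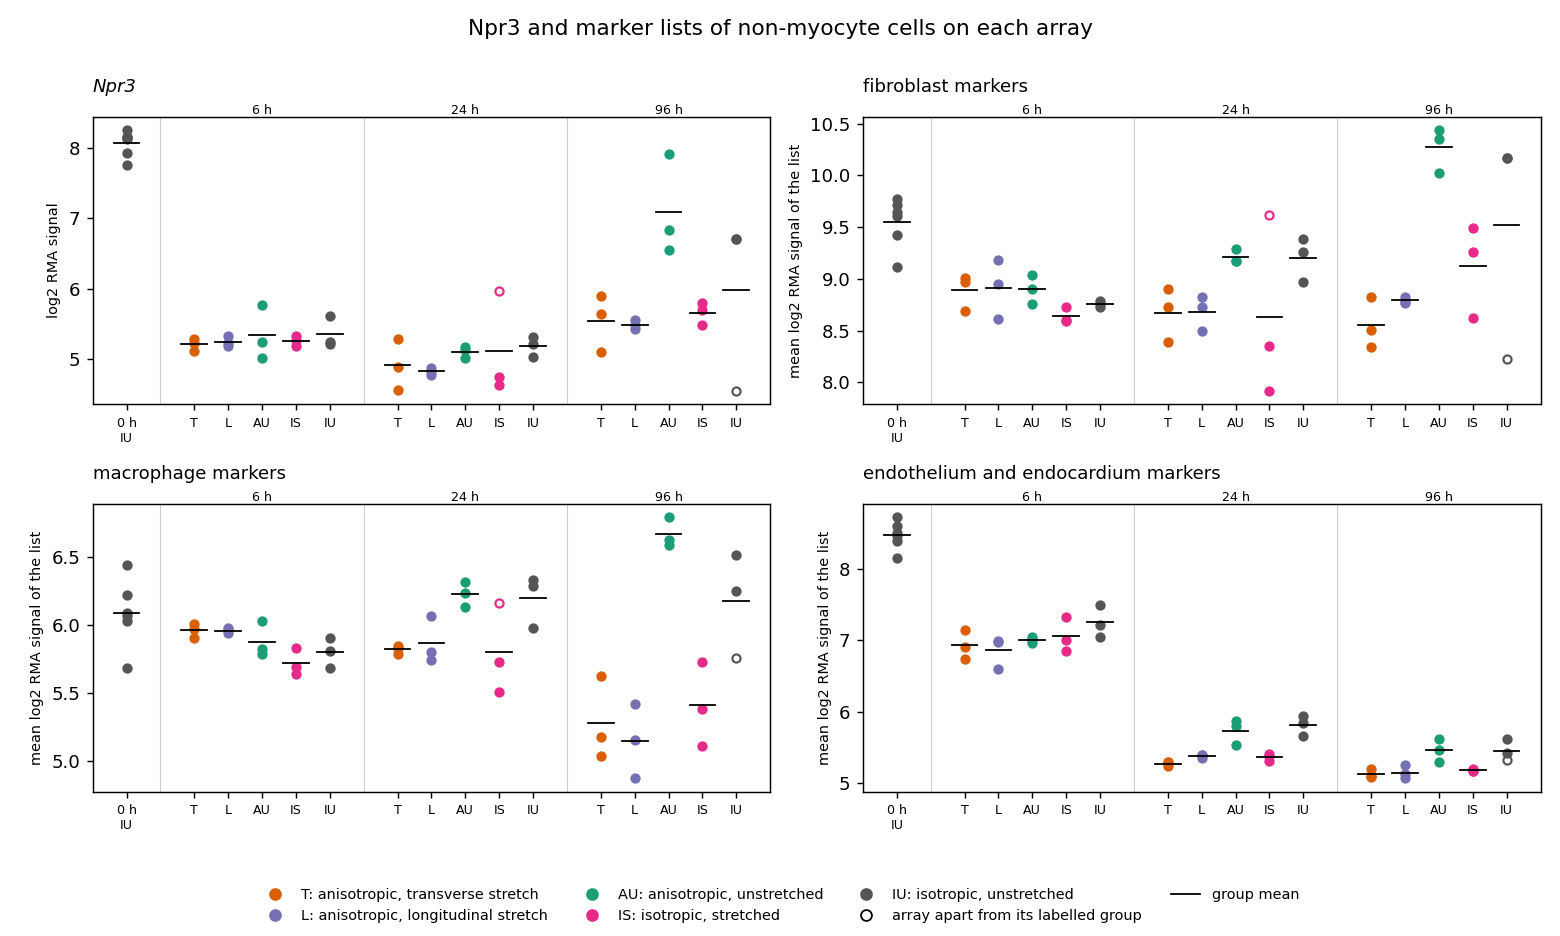
Npr3 (log2 RMA signal) and the mean log2 signal of the fibroblast, macrophage and endothelium and endocardium marker lists on each array; lines are group means and open circles the 2 arrays that stand apart. At 96 h the anisotropic unstretched arrays lie above all stretched ones for Npr3 (6.55 to 7.92 against 5.10 to 5.89) and for fibroblast markers (10.02 to 10.44 against 8.35 to 9.49).

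Other cell types were read in the same way. The mean of the 3 atrial cardiomyocyte markers measured ran from 5.82 to 7.42 over all 96 h arrays, against 7.61 to 7.995 at 0 h. Smooth muscle and pericyte markers (5 measured) averaged 8.23 to 9.09 in 96 h isotropic unstretched tissue, against 7.92 to 8.10 at 0 h. Erythroid markers averaged 5.77 to 8.83 there, against 10.37 to 11.36 at 0 h. Their part in any member's result was not tested.

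Whether the direction of stretch or the layout of the tissue mattered was tested directly. Transverse against longitudinal stretch gave 0 calls among 21 member tests (limma, 2 at unadjusted p under 0.05), with 0.0215%, 0% and 0% of all genes called at 6, 24 and 96 h. Anisotropic against isotropic unstretched tissue gave 0 of 21 (limma, 5 at unadjusted p under 0.05), with 0%, 0% and 0.0161% of all genes called. The largest of these 5 were at 96 h: Npr3 was 1.11 ± 0.32 higher (SE, adjusted p = 0.22), Nppb 0.65 lower, at -0.65 ± 0.23 (SE, adjusted p = 0.30), and Npr2 0.55 ± 0.22 higher (SE, adjusted p = 0.36). Without isotropic unstretched replicate 1, which stands apart, the Npr3 difference was 0.42 and the Npr2 difference 0.11 (adjusted p = 1 for both), and without replicate 2 the Npr3 difference was 1.498 (adjusted p = 0.025). At 24 h the Nppa difference was -0.51 ± 0.23 (SE, adjusted p = 1), and -1.08 ± 0.15 (SE, adjusted p = 0.00025) without the low isotropic unstretched array.

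None of the 42 F tests for a response that differs between layouts or between times was called (limma, 7 at unadjusted p under 0.05). Differences between layouts were called for 0.0269%, 0% and 0% of all genes at 6, 24 and 96 h. Differences between times were called for 0.344% under isotropic, 1.75% under longitudinal and 2.83% under transverse stretch. For Npr3 the time tests gave adjusted p = 0.20 under longitudinal and 0.22 under transverse stretch. With the 2 arrays that stand apart left out they were 0.0011 and 0.0026, where 4.58% and 6.85% of all genes were called. The change of Npr3 under longitudinal stretch at 96 h, where 14.8% of all genes were then called, was past the threshold with and without those arrays.

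Of the enzymes that cut or degrade these peptides, few were called under stretch, all at 96 h in anisotropic tissue. Of 8 measured genes of processing and clearance (Mep1b unmatched), 0 were called in 7 of the 9 stretch comparisons (limma). At 96 h, 2 were called under transverse stretch, where 15% of all genes were, and 1 under longitudinal stretch, where 9.7% were. With 8 genes measured, these counts are too few to set apart from the shares of all genes. Mme, which encodes neprilysin, the main degrading enzyme, fell by 0.73 ± 0.17 under transverse stretch (SE, adjusted p = 0.0023) and by 0.60 ± 0.18 under longitudinal stretch (SE, adjusted p = 0.026). Its signal was low, at the 27.3rd percentile of gene means. Group means were 4.22 in transverse, 4.36 in longitudinal and 5.03 in anisotropic unstretched tissue. Furin, a proprotein convertase that cleaves the precursor of the brain peptide, rose by 0.45 ± 0.12 under transverse stretch (SE, adjusted p = 0.0072). The list's median was 0.10 under transverse and 0.05 under longitudinal stretch. Against 0 h, isotropic unstretched tissue had 0 higher and 4 lower at 6 h, 1 higher and 3 lower at 24 h, and 0 higher and 3 lower at 96 h, where 12.5%, 16.1% and 16.1% of all genes were lower.

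Downstream of the receptors, 16 genes of cyclic GMP signalling were measured of 16 listed. Against 0 h, 10 were lower and 0 higher at 6 h, 8 lower and 1 higher at 24 h, and 6 lower and 1 higher at 96 h, with list medians of -0.31, -0.23 and -0.10. Over all genes 12.5%, 16.1% and 16.1% were lower and 19.1%, 20.8% and 21.8% higher at these times. Stretch gave calls in 3 of the 9 comparisons: 0 higher and 2 lower at 24 h in isotropic tissue, 1 higher and 3 lower at 96 h under transverse stretch, and 2 higher and 2 lower at 96 h under longitudinal stretch. All genes were called at 3.93%, 15% and 9.7% in these comparisons. Phosphodiesterases, which break down cyclic nucleotides, gave the largest of these. Pde3b fell by 1.25 ± 0.20 under transverse stretch (SE, adjusted p = 3.6e-05) and by 1.02 ± 0.21 under longitudinal stretch (SE, adjusted p = 0.0014) at 96 h, and Pde1a fell by 0.88 ± 0.17 under transverse stretch (SE, adjusted p = 0.00034). The list's median was 0.05 under transverse and -0.01 under longitudinal stretch at 96 h, near that of all genes.

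Transcription factors known to act on Nppa or Nppb were listed too, 18 of 20 measured (Mef2a and Jarid2 unmatched). At 96 h, 4 were higher and 1 lower under transverse stretch, 2 higher and 1 lower under longitudinal stretch, and 1 higher and 0 lower in isotropic tissue, where 15%, 9.7% and 2.94% of all genes were called in either direction. Myocd, a muscle co-activator of SRF, rose by 0.69 ± 0.14 (SE, adjusted p = 0.00075) and Nkx2-5, a cardiac homeobox factor, by 0.64 ± 0.13 (SE, adjusted p = 0.00072) under transverse stretch at 96 h. Tbx20, a T-box factor of the heart, fell by 0.62 ± 0.13 under longitudinal stretch (SE, adjusted p = 0.0018). The list's median was 0.15 under each direction. At 24 h, 1 was higher and 0 lower under transverse stretch, 1 higher and 1 lower under longitudinal stretch, and 0 higher and 1 lower in isotropic tissue (1.46%, 2.23% and 3.93% of all genes), and at 6 h none was called under any stretch. Against 0 h, 3 were higher and 8 lower at 6 h, 1 higher and 10 lower at 24 h, and 4 higher and 9 lower at 96 h, beside the shares of all genes given for these times above.

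Likeness across arrays is given as a description, as Pearson's r over the 51 arrays after the harvest terms were removed; arrays share groups, so the values mostly reflect differences between groups. Among the members, Npr1 and Corin were most alike (0.929), followed by Nppa and Nppb (0.731). Nppb and Corin ran opposite (-0.677), and the r of Nppa with Npr3 was 0.065. Over all genes, those most like Nppa were Cnn1 (0.948), Casq1, Fhl1, Xirp2 and Adamtsl5 (down to 0.906). Nppb was most like Ankrd1 (0.88), Rai2, Scn3b, Mybpc2 and S100a6 (down to 0.865). Npr1 was most like Tnxa (0.96), Notch1, Cyth1, Flt1 and Sema6d (down to 0.943), and Corin was most like Flt1 (0.954), Pgm5, Tnxa, Wnk2 and Notch1 (down to 0.949). Tnxa, Notch1 and Flt1 thus stood in both lists. Npr3 was most like C1qtnf1 (0.947), Olfml1, Rnf144a, Hpse and Rhoj (down to 0.926), and Npr2 most like Leprel2 (0.915), Man2b1, Tm7sf3, Golim4 and Clstn1 (down to 0.901). For Nppc the highest values were lower, at 0.665 for Slc4a3, 0.663 for Chrna5 and down to 0.644 for Ppef2, Olr1422 and Mtss1l.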

How the data were processed

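The authors made the signals by RMA; the submitters' processing notes name Affymetrix Expression Console and limma. Versions and genome build are not given in the sources used here. RNA came from a Stratagene miniprep and was biotin-labelled, per the labels' protocols. The deposited values are log2 signals of 29214 probe sets, already background-corrected and normalized, which compresses differences of dim probe sets. The authors' deposited table of log2 fold changes served only to check labels. A single probe set per symbol, the brightest on average, gave 18602 genes, with no filter on signal. Group means and harvest terms were fitted with limma 3.58.1 in R 4.3.3 on the 51 arrays, which leaves 30 residual degrees of freedom, and p-values were adjusted by Benjamini-Hochberg over all genes per comparison at 0.05. There were 28 comparisons and 7 F tests. An adjusted p is from this fit unless another setting is named with it.

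Harvest, given in the labels, pairs the arrays. Deviations of arrays of the same harvest had a mean r of 0.22 (220 pairs, 92.7% above 0), those of different harvests -0.05 (995 pairs). Harvests are separate primary cultures.

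Alternatives were other harvest terms, fewer arrays, filters and scalings, single arrays left out, and the 2 arrays that stand apart left out or exchanged. For a comparison of 2 groups, single arrays of those groups were left out in turn, in 6 fits, or 9 against 0 h. For F tests and counts of calls, each of the 51 arrays was left out in turn. Named genes were the 7 members, the 5 genes most like each and up to 3 of the largest called stretch changes in each list; Dcn and Lum were added after their values were seen. The members and lists were chosen with earlier results of these data known. Scripts were tested on simulated data. Motifs were searched with Python 3.11.15, and figures drawn with matplotlib 3.10.9.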

Additional observations from a re-analysis of the deposited data

Results flagged for a closer look

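At 0 h, the lowest Npr1 array, that of harvest 6, read 6.328, against 6.87 to 7.17 for the other 5 arrays, and its gap to them was large for a group of 6 (Dixon's criterion). Chance marks about 1 in 20 groups in this way. Without any single 0 h array, Npr1 remained lower than at 0 h in isotropic unstretched tissue at 6, 24 and 96 h, all past the threshold.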

How the results depend on the processing

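No called result of a member changed direction under any alternative run, and 31 of 36 calls were kept with the 2 arrays that stand apart left out. Under the replicate block by harvest as fitted, 3 stretch tests were called; there were 2 without the block, 2 with harvest as a random block and 3 with a block by replicate number, and 18, 16, 22 and 19 time steps. With the own 0 h array subtracted, 2 stretch tests, 12 tests against 0 h (15 as fitted) and 12 time steps were called, and with only arrays of the times compared and 0 h, 14 and 14 of the last 2 kinds. The stretch count was 1 when only arrays of the times compared and 0 h were fitted, 1 with dim genes left out and 5 with the 2 arrays exchanged. The filter on dim genes keeps only Nppa and Nppb by construction, so it left 3 calls against 0 h, 11 time steps and 2 of the 7 F tests for any difference. With the 2 arrays exchanged, 31 time steps were called. As fitted, 18 of 70 member tests of time steps were called, or 25.7%, beside 12.5% of all gene tests of this kind. Against 0 h the 15 of 21 were 71.4%, beside 35.5%. Shares over all genes are not given here for the other settings, so their counts are not read as results about the members. F tests for layout or time gave 1 call, Nppb over time under transverse stretch, with dim genes left out, with quantile scaling repeated and with an intensity trend in the prior variance, and 3 with the 2 arrays left out or exchanged. Leaving out single arrays gave 2 to 6 stretch calls, 0 to 1 for transverse against longitudinal stretch, 0 to 1 for anisotropic against isotropic tissue, 13 to 15 against 0 h, 15 to 22 time steps, 0 to 3 F tests for layout or time, and 6 to 7 genes with any difference. The cause was not tested beyond what is said. Signals of Nppc, Npr1, Npr2, Npr3 and Corin near the median of all genes limit how small a difference can be seen.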
